A study of Mus musculus with 30 samples.

Results

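The enzymes described here make proline, asparagine, aspartate, glutamate and glutamine from one another: Pycr1, Aldh18a1, Asns, Got1, Got2, Glud1 and Glul, 7 of the 29861 genes in the deposited table. They were selected on measured values: Pycr1 lay lower in Antimycin A than in the solvent DMSO while other targets of the transcription factor ATF4 lay higher. Antimycin A against DMSO is therefore described without a test, and the comparisons of the other 7 compounds with DMSO were tested but share their DMSO libraries with it. RNA came from CCG-HTA-1, a primary tail fibroblast line at passage 4 from UMHet3 mice, a genetically mixed stock, aged 5 to 8 weeks at collection. The age label of replicate 1 of Dihydrorotenone alone reads 8 to 11 weeks. All groups shared high-glucose medium without pyruvate and ambient oxygen, and RNA was extracted 48 hours after compounds were added, per the labels. The compounds were Podofilox, a microtubule poison, Clofilium tosylate, which blocks potassium channels, the chalcone Cardamonin from plants, AEG 3482, BerberineA (named only so in the labels), Diphenyleneiodonium Cl, which inhibits flavoproteins, Dihydrorotenone, an inhibitor of respiratory complex I, and Antimycin A, an inhibitor of respiratory complex III. There were 3 libraries for each compound and 6 for DMSO, and the labels give no doses. All libraries come from 1 line, so p-values measure the spread between cultures or libraries of that line. Library numbers in the labels run on within each group, so library order and treatment cannot be told apart.

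Proline is built from glutamate in mitochondria. Aldh18a1 encodes the enzyme that phosphorylates and reduces glutamate to pyrroline carboxylate, and Pycr1 encodes a reductase that turns it into proline, a major component of the collagen that fibroblasts secrete. Asns makes asparagine from aspartate with glutamine as the nitrogen donor. Got1 in the cytosol and Got2 in mitochondria exchange an amino group between aspartate and glutamate and form part of the malate-aspartate shuttle. Glud1 interconverts glutamate and ketoglutarate in mitochondria, and Glul makes glutamine from glutamate and ammonia. ATF4 is translated when amino acids are short or mitochondria are stressed and raises many amino acid enzymes and transporters. Asns is a classical target, and Pycr1, Aldh18a1 and Got1 are also counted among its targets.

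Promoter sequence is shown for the 4 genes counted above among ATF4 targets, chosen with the changes described below known. Each line gives the 250 bases before the RefSeq start, 5′ to 3′ on the strand of the gene (RefSeq, GRCm38.p6). The windows are chr11:120643749-120643998 for Pycr1, chr6:7693210-7693459 for Asns, chr19:43524606-43524855 for Got1 and chr19:40588464-40588713 for Aldh18a1, all on the minus strand. Capitals mark TGATGNAA or its reverse complement TTNCATCA, letters of the composite element bound by ATF4, and in Aldh18a1 the E-box CACGTG.
Pycr1: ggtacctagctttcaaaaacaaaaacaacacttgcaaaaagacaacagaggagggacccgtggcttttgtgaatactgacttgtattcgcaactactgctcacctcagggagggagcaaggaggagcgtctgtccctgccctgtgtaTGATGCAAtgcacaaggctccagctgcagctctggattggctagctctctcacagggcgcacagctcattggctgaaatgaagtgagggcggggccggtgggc
Asns: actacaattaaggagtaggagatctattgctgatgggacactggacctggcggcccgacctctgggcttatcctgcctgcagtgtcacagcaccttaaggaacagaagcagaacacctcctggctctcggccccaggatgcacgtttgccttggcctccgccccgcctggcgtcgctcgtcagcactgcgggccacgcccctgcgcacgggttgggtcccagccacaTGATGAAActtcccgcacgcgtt
Got1: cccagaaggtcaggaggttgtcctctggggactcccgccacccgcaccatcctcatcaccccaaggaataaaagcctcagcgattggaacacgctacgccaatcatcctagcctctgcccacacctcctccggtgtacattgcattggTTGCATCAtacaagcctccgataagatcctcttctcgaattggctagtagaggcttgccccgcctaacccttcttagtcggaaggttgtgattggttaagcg
Aldh18a1: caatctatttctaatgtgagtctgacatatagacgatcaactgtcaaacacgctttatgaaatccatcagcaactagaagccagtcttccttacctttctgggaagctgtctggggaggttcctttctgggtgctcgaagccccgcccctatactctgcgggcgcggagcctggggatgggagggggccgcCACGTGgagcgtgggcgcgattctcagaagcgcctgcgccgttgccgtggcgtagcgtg
The composite element letters lay 103 to 96 bases before the start in Pycr1, 23 to 16 bases before it in Asns and, on the opposite strand, 102 to 95 bases before it in Got1. The letters that fit the pattern were TGATGCAA in Pycr1, TGATGAAA in Asns and TTGCATCA in Got1. Whether they bear on the changes below was not tested. The Aldh18a1 window held the E-box 59 to 54 bases before the start. Neither set of letters was found in the windows of Got2, Glud1 and Glul. Among the 32851 promoters of the same length in the RefSeq table, 3.452% held the composite element letters and 6.021% the E-box, on either strand. The motifs were chosen after the sequences had been seen. The GENCODE gene models of Pycr1, Asns and Got2 begin inside these windows, upstream of the RefSeq starts. By the GENCODE model of Asns the composite element letters lie within the gene, while those of Pycr1 lie before the start in both models.

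The genes lie, in GRCm38, at chr11:120635712-120643769 (Pycr1), chr19:40550257-40588463 (Aldh18a1), chr6:7675169-7693254 (Asns), chr19:43499752-43524605 (Got1), chr8:95864134-95888547 (Got2), chr14:34310727-34345265 (Glud1) and chr1:153899944-153909723 (Glul). All are protein-coding, and Glud1 and Glul are on the plus strand. Aldh18a1, Asns and Got1 shared no 31-base stretch of their transcripts with another gene, and Pycr1 shared 1.53%. Got2 shared 30.9%, Glul 20.4% and Glud1 10.4%, with Gm10874, Glns-ps1 and Glud-ps as the main partners, so the assignment of their reads is less certain. Aldh18a1 overlaps the processed pseudogene Gm15801 on the same strand, which reached at most 1.55 TPM. Glul overlaps Teddm2 on the opposite strand, which reached at most 0.875 TPM, and Mir8114 on its own strand, and Got2 overlaps Gm45760 on the opposite strand. Mir8114 and Gm45760 are not among the genes in the deposited table, so their levels are unknown.

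Abundance was measured as TPM, a transcript count scaled by transcript length and by library total. Each library had 12229 to 12700 genes at 1 TPM or more. All 9 fibroblast markers (Col1a1, Col1a2, Col3a1, Pdgfra, Pdgfrb, Thy1, Dcn, Lum and Vim) exceeded 1 TPM in every library. Their sum was 9750 to 11270 TPM in DMSO, 7678 to 8453 TPM in Antimycin A and 3803 to 4815 TPM in Cardamonin. Endothelial markers summed to at most 0.95 TPM, skeletal muscle markers to at most 1.52 TPM and keratinocyte markers to at most 2.43 TPM. Krt5, Myod1 and Plin1 were at 0 in every library. Glial markers summed to 2.42 to 5.41 TPM, with 1 of 3 at a group mean of 1 TPM or more. Of 4 melanocyte markers, Pmel had a mean above 1 TPM in each of the 9 groups, and Mlana did so except in Cardamonin and AEG 3482, at 0.43 and 0.36 TPM. Their sum was 4.54 to 6.93 TPM in DMSO, 16.1 to 18.6 TPM in Antimycin A and 1.27 to 1.83 TPM in Cardamonin. Of 5 leukocyte markers, 2 or 3 had a group mean of 1 TPM or more, Cd68 and Adgre1 in every group, with sums of 22.2 to 26.9 TPM in DMSO and 27.8 to 44.5 TPM in Cardamonin. These 2 markers went in opposite directions in Cardamonin: Cd68 averaged 33.1 TPM against 13.1 TPM in DMSO, and Adgre1 averaged 1.91 TPM against 10.4 TPM. Ptprc stayed at or under 0.876 TPM. Of 3 adipocyte markers, Fabp4 alone reached 1 TPM, and their sum was 17.2 to 28.6 TPM in DMSO and 5.59 to 8.16 TPM in AEG 3482. The part of these marker differences in the enzyme values was not tested, and fewer cells of a type and less RNA per cell cannot be told apart in bulk RNA.

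In Antimycin A, the contrast that chose the genes, the Pycr1 libraries read 8.35, 6.07 and 7.59 TPM. The 6 DMSO libraries ran from 13.9 to 19.3 TPM with a median of 17.5 TPM. All 3 Antimycin A libraries lay below every DMSO library, at 0.427 times the DMSO mean, a difference of −1.12 (SE 0.12) on the log2(TPM + 1) scale. Asns read 56.7, 67.3 and 64.6 TPM against 26.5 to 32.8 TPM in DMSO, with a median of 28.3 TPM. Those libraries all lay above DMSO, by 1.08 (SE 0.08). Got1, the cytosolic aminotransferase, was also above DMSO without overlap, at 47.3, 44.8 and 47.8 TPM against 27.0 to 31.3 TPM, a difference of 0.67 (SE 0.06). Aldh18a1, the step before Pycr1, read 29.0, 28.7 and 31.2 TPM and overlapped the DMSO range of 27.8 to 35.3 TPM. Got2, at 87.7 to 93.4 TPM, overlapped it too. Glud1 lay below DMSO at 113.6 to 124 TPM against 139.8 to 159 TPM, and so did Glul at 59.1 to 69.3 TPM against 71.7 to 84.1 TPM. In all, 2 of the 7 genes lay above DMSO and 3 below it without overlap, where 18.0% of 13644 genes lay above and 13.0% below.

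**Figure D1:**
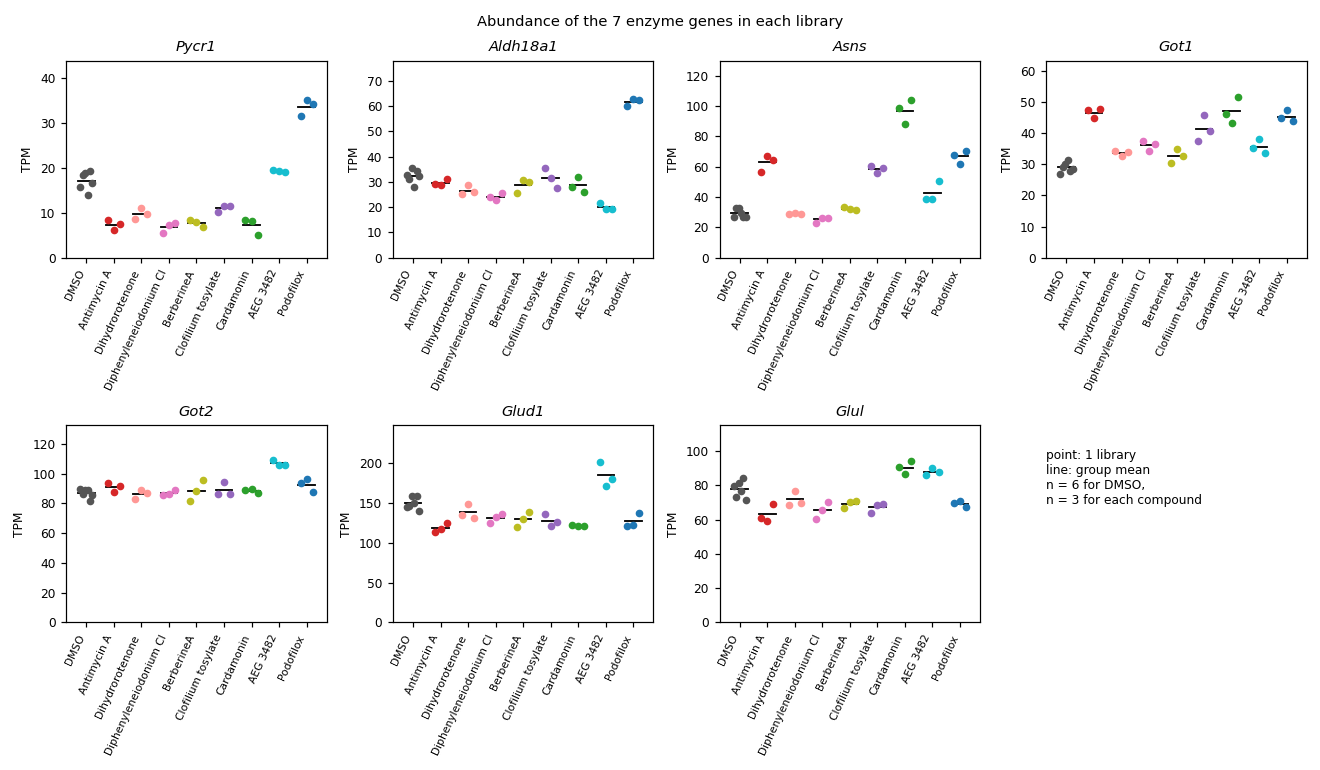
Abundance of the 7 enzyme genes in TPM (vertical axes, from 0) in each of 30 libraries, by group. Points are libraries and lines are group means (n = 6 for DMSO, n = 3 for each compound). Pycr1 is under 12 TPM in 6 compounds and above 31 TPM in Podofilox, while Asns is highest in Cardamonin.

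Outside the contrast that chose it, Pycr1 fell in 5 of 7 compounds and rose in 1. It read 5.45, 7.25 and 7.81 TPM in Diphenyleneiodonium Cl, 8.30, 8.27 and 5.15 TPM in Cardamonin and 8.31, 7.85 and 6.94 TPM in BerberineA. It read 8.54, 11.1 and 9.79 TPM in Dihydrorotenone and 10.2, 11.5 and 11.4 TPM in Clofilium tosylate. In none of these 5 did a library reach the DMSO range of 13.9 to 19.3 TPM. The log2 change was −1.22 in Diphenyleneiodonium Cl, −1.16 in Cardamonin, −1.06 in BerberineA, −0.75 in Dihydrorotenone and −0.59 in Clofilium tosylate, each with an SE of 0.12. The corresponding adjusted p-values, from a two-sided limma test with Benjamini-Hochberg adjustment over 13644 genes, were 4.5e-08, 5.4e-09, 6.6e-07, 0.000203 and 0.000889. In Podofilox, Pycr1 was at 31.6, 35.1 and 34.3 TPM, above every DMSO library, and rose by 0.94 (SE 0.12, limma adjusted p = 6.42e-07). In AEG 3482 it read 19.6, 19.2 and 19.1 TPM, which overlapped the top of the DMSO range, and the difference of 0.17 (95% interval −0.09 to 0.42) did not pass (limma adjusted p = 0.233).

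By group mean, Pycr1 ran from Podofilox (33.7 ± 1.81 TPM, SD, n = 3) through AEG 3482 (19.3 ± 0.268 TPM, n = 3) and DMSO (17.2 ± 2.11 TPM, n = 6) to Clofilium tosylate (11.0 ± 0.748 TPM, n = 3) and Dihydrorotenone (9.83 ± 1.30 TPM, n = 3). BerberineA (7.70 ± 0.699 TPM), Antimycin A (7.34 ± 1.16 TPM), Cardamonin (7.24 ± 1.81 TPM) and Diphenyleneiodonium Cl (6.84 ± 1.24 TPM) closed the order, with n = 3 each. Those last 4 groups overlapped one another in turn, as did AEG 3482 with DMSO and Clofilium tosylate with Dihydrorotenone. The other 3 steps of the order showed no overlap.

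Aldh18a1, the enzyme before Pycr1, moved less. It rose in Podofilox, to 60.0, 62.8 and 62.3 TPM against a DMSO median of 32.4 TPM, by 0.92 (SE 0.08, limma adjusted p = 4.64e-10). Podofilox was thus the compound in which both proline enzymes rose without overlap with DMSO. In AEG 3482, Aldh18a1 read 21.7, 19.3 and 19.4 TPM, below every DMSO library, and fell by 0.65 (limma adjusted p = 5.41e-08), while Pycr1 did not pass there. It also fell in Diphenyleneiodonium Cl, at 24.1, 22.6 and 25.7 TPM, by 0.40 (limma adjusted p = 0.000345). In Dihydrorotenone it fell by 0.27 (limma adjusted p = 0.0195), but 1 library there, at 28.6 TPM, lay inside the DMSO range. That call was lost without replicate 1 or replicate 3 and with only the compared groups in the fit. In Cardamonin, BerberineA and Clofilium tosylate the difference did not pass, with values of −0.17, −0.16 and −0.04 and limma adjusted p-values of 0.0595, 0.149 and 0.757. In Cardamonin it passed under all 3 other scalings of the libraries, without replicate 2 of Cardamonin and without replicate 4 of DMSO. In BerberineA it passed under quantile normalization.

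The ratio of Pycr1 to Aldh18a1, taken in each library from TPM, shows the uneven movement of the pair. It was 0.485 to 0.588 in DMSO and 0.528 to 0.559 in Podofilox, so that the ratios of those groups overlapped although both genes were higher in Podofilox. It was 0.903 to 0.995 in AEG 3482, above all other groups. In the remaining 6 compounds it lay between 0.198 and 0.417, below every DMSO library.

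Asns rose in 4 of the 7 tested compounds. It read 98.4, 88.3 and 104 TPM in Cardamonin, its highest level in the series, against 26.5 to 32.8 TPM in DMSO. The rise there was 1.70 (SE 0.08, limma adjusted p = 8.01e-16), or 3.32 times the DMSO mean. It read 68.0, 62.0 and 70.1 TPM in Podofilox and 60.1, 56.0 and 59.2 TPM in Clofilium tosylate. These rises were 1.17 (limma adjusted p = 1.1e-11) and 0.98 (limma adjusted p = 3.1e-09). In AEG 3482 it read 38.6, 38.8 and 50.5 TPM, with replicate 3 well above the other 2 libraries, and rose by 0.53 (limma adjusted p = 3.09e-06). All 4 groups lay above DMSO without overlap.

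Asns did not pass in the remaining 3 compounds. It read 28.6 to 29.7 TPM in Dihydrorotenone, a difference of −0.00 (95% interval −0.17 to 0.17, limma adjusted p = 0.99), and 31.5 to 33.3 TPM in BerberineA, a difference of 0.15 (interval −0.02 to 0.31, limma adjusted p = 0.219). In Diphenyleneiodonium Cl it read 23.1, 26.2 and 26.4 TPM, just under the lowest DMSO library, a difference of −0.20 (interval −0.37 to −0.03, limma adjusted p = 0.0733). That last difference passed under quantile normalization, under rescaling without the 20 most abundant genes and with a replicate block. By group mean, Cardamonin stood first without overlap with Podofilox, followed by Podofilox, Antimycin A and Clofilium tosylate, each overlapping its neighbour. AEG 3482 stood apart from Clofilium tosylate above it and from BerberineA below it.

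Got1 was higher than DMSO in all 7 tested compounds at an adjusted p under 0.05. It read 46.1, 43.4 and 51.5 TPM in Cardamonin and 44.8, 47.4 and 43.8 TPM in Podofilox, against 27.0 to 31.3 TPM in DMSO. The rises were 0.68 (SE 0.06, limma adjusted p = 1.84e-10) and 0.63 (limma adjusted p = 3.44e-09). It rose by 0.49 in Clofilium tosylate, 0.31 in Diphenyleneiodonium Cl, 0.29 in AEG 3482 and 0.21 in Dihydrorotenone, with limma adjusted p-values of 1.07e-06, 0.000329, 0.000147 and 0.0179. All these libraries lay above the DMSO range. The rise in AEG 3482 passed in every alternative but was as small as 0.13, with a highest limma adjusted p of 0.038. The call in Dihydrorotenone was lost without replicate 1 (the library with another age label) or replicate 3. In BerberineA, at 30.5, 34.8 and 32.7 TPM, 1 library lay inside the DMSO range, and the rise was 0.17 (limma adjusted p = 0.0486). That call was lost in 14 of 19 alternatives, with a highest adjusted p of 0.261.

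Got2, the mitochondrial partner, rose in AEG 3482 alone among the 7 compounds. It read 108.9, 105.9 and 105.6 TPM there against 81.6 to 89.7 TPM in DMSO. The rise of Got2 was 0.30 (SE 0.04, limma adjusted p = 1.35e-06). It passed in every alternative but was as small as 0.14. In the other 6 tested compounds its libraries lay between 81.5 and 96.0 TPM and the groups overlapped DMSO, with differences of −0.01 to 0.09 and limma adjusted p-values of 0.0919 or more. The 95% interval of the difference in Podofilox, the largest of these 6, was 0.00 to 0.18. The ratio of Got1 to Got2 was 0.301 to 0.353 in DMSO and 0.318 to 0.359 in AEG 3482, where both genes rose. It was 0.486 to 0.594 in Cardamonin, 0.477 to 0.501 in Podofilox and 0.434 to 0.485 in Clofilium tosylate, above every DMSO library.

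Glud1 fell in 5 of the 7 tested compounds and rose in AEG 3482. It read 121.5, 121.3 and 120.2 TPM in Cardamonin against 139.8 to 159 TPM in DMSO, with a median of 147 TPM. This was the tightest group and lay wholly below DMSO, with a fall of 0.30 (SE 0.06, limma adjusted p = 6.28e-05). The falls in Podofilox, Clofilium tosylate, BerberineA and Diphenyleneiodonium Cl were 0.24, 0.23, 0.21 and 0.19, with limma adjusted p-values of 0.00154, 0.00491, 0.0102 and 0.0194, all without overlap. The call in Clofilium tosylate was lost without its replicate 2, that in BerberineA without its replicate 1 and that in Diphenyleneiodonium Cl without its replicate 1 or 2. In Dihydrorotenone the difference of −0.11 did not pass (95% interval −0.23 to 0.01, limma adjusted p = 0.215). In AEG 3482 the libraries read 201, 171 and 180.1 TPM, all above DMSO, a rise of 0.30 (limma adjusted p = 7.18e-05). That rise passed in every alternative but was as small as 0.16.

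Glul rose in Cardamonin, to 90.5, 86.3 and 94.1 TPM against 71.7 to 84.1 TPM in DMSO, a rise of 0.21 (SE 0.06, limma adjusted p = 0.00133). Under quantile normalization this rise was 0.11 and did not pass (limma adjusted p = 0.0569). In AEG 3482 it read 85.9, 90.1 and 87.8 TPM, above the DMSO libraries, a rise of 0.18 (limma adjusted p = 0.00678) that was lost under all 3 other scalings and was as small as 0.01. The median change of all genes in AEG 3482 was 0.10 as deposited and −0.01 under median-ratio scaling. Glul fell in Diphenyleneiodonium Cl by 0.25, in Clofilium tosylate by 0.21, in BerberineA by 0.16 and in Podofilox by 0.16, with limma adjusted p-values of 0.00129, 0.00696, 0.034 and 0.0175. Of these, the call in BerberineA was lost in 7 of 19 alternatives, that in Clofilium tosylate without its replicate 1 and that in Podofilox without its replicate 3. In Dihydrorotenone the difference of −0.11 did not pass (limma adjusted p = 0.178). The ratio of Glul to Glud1 was 0.504 to 0.549 in DMSO and 0.712 to 0.782 in Cardamonin, where the genes moved in opposite directions.

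**Figure D2:**
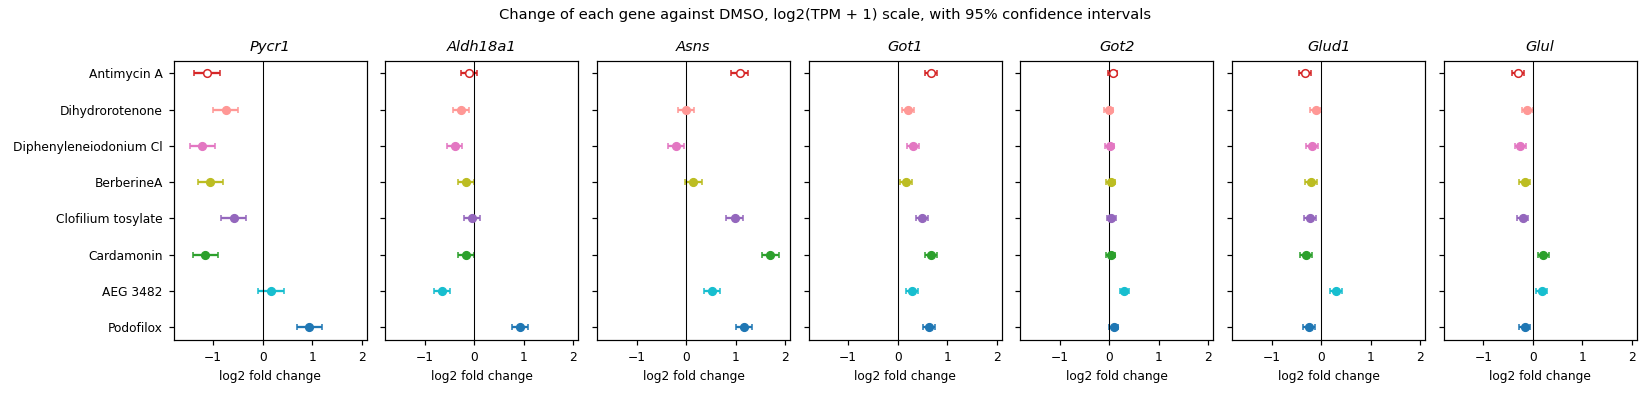
Difference of each compound from DMSO for each gene on the log2(TPM + 1) scale (horizontal axes), with 95% confidence intervals from limma. The open symbol is Antimycin A, whose contrast chose the genes and was not tested. Pycr1 lies left of 0 in 6 compounds, Got1 lies right of 0 in all 8 and Got2 stands clear of 0 in AEG 3482.

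Counted by compound, the 7 genes were read against the share of all 13644 genes called. In Dihydrorotenone, 1 rose and 2 fell, where 14.4% of genes were called (4.95% higher, 9.43% lower). In Diphenyleneiodonium Cl, 1 rose and 4 fell, where 25.7% were called (14.0% higher, 11.7% lower). In BerberineA, 1 rose and 3 fell, where 21.7% were called (12.6% higher, 9.16% lower). In Clofilium tosylate, 2 rose and 3 fell, where 23.4% were called (10.9% higher, 12.5% lower). Calls were far more common in the other compounds, so that 5 of 7 in Cardamonin (3 higher, 2 lower) stood beside 70.3% of all genes (37.3% higher, 33.0% lower). In AEG 3482, 5 rose and 1 fell, where 68.1% were called (41.3% higher, 26.8% lower). In Podofilox, 4 rose and 2 fell, where 46.2% were called (26.2% higher, 20% lower). Without replicate 1 or replicate 3 of Dihydrorotenone, Pycr1 was the 1 gene called there. In BerberineA, 2 genes were called without any of its libraries in turn, and without replicate 1 or 5 of DMSO. The 4 that rose in Podofilox were Pycr1, Aldh18a1, Asns and Got1. The median difference of the 7 genes ranged from −0.20 in Diphenyleneiodonium Cl to 0.63 in Podofilox, where the median of all genes was 0.02 and 0.04.

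Pairs of compounds were also compared directly, without the DMSO or Antimycin A libraries in the contrast. Cardamonin was compared with AEG 3482 because earlier results of these data had targets of NRF2, the factor named in the study's title, higher in both. Pycr1 was lower in Cardamonin, at 5.15 to 8.30 TPM against 19.1 to 19.6 TPM, by 1.33 (SE 0.14, limma adjusted p = 1.59e-08). Aldh18a1 went the other way, at 26.0 to 32.0 TPM in Cardamonin against 19.3 to 21.7 TPM, higher by 0.49 (SE 0.09, limma adjusted p = 5.6e-05). Asns was higher in Cardamonin by 1.17 (limma adjusted p = 9.78e-11) and Got1 by 0.39 (limma adjusted p = 3.32e-05). Got2 was lower by 0.27 (limma adjusted p = 5.32e-05) and Glud1 by 0.60 (limma adjusted p = 3.8e-08). None of these 6 genes had overlapping groups. Glul differed by 0.04 (95% interval −0.09 to 0.17, limma adjusted p = 0.647). The 6 called genes stood beside 55.3% of all genes (22.6% higher, 32.7% lower).

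Podofilox and Clofilium tosylate, in both of which earlier results had ATF4 targets above DMSO, differed in the proline enzymes. Pycr1 was at 31.6 to 35.1 TPM in Podofilox and 10.2 to 11.5 TPM in Clofilium tosylate, or 3.05 times as high by the means, a difference of 1.53 (SE 0.14, limma adjusted p = 3.4e-09). Aldh18a1 was higher in Podofilox by 0.96 (SE 0.09, limma adjusted p = 3.77e-09), at 60.0 to 62.8 TPM against 27.4 to 35.4 TPM. The other 5 genes did not pass. The 95% intervals of their differences were −0.01 to 0.38 for Asns, −0.01 to 0.28 for Got1, −0.05 to 0.16 for Got2, −0.15 to 0.13 for Glud1 and −0.09 to 0.18 for Glul, with limma adjusted p-values of 0.119, 0.131, 0.422, 0.943 and 0.618. Asns lay higher in Podofilox without overlap and passed in the fit of these 2 groups alone. Got1 passed without replicate 2 of Clofilium tosylate. Across all genes 39.1% were called (22.6% higher, 16.5% lower).

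The ratio of Pycr1 to Asns in each library puts the separation of these ATF4 targets in 1 number. It was 0.469 to 0.730 in DMSO. It was 0.0494 to 0.0936 in Cardamonin and 0.0901 to 0.147 in Antimycin A, the lowest groups. The genes were chosen on Pycr1 being lower and other ATF4 targets higher in Antimycin A, so a low ratio there restates that choice. Clofilium tosylate (0.169 to 0.206), BerberineA (0.220 to 0.249), Diphenyleneiodonium Cl (0.236 to 0.296) and Dihydrorotenone (0.298 to 0.374) also lay below every DMSO library. AEG 3482 (0.377 to 0.507) and Podofilox (0.465 to 0.566) overlapped DMSO. In Podofilox, Pycr1 and Asns were both above DMSO, and in Cardamonin and Clofilium tosylate they moved in opposite directions. In Diphenyleneiodonium Cl, BerberineA and Dihydrorotenone, Pycr1 fell and Asns did not pass.

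Over the 9 group means of log2(TPM + 1), the Pearson correlation of Asns with Got1 was 0.88, that of Pycr1 with Asns 0.10 and that of Pycr1 with Aldh18a1 0.58. Got2 correlated with Glud1 at 0.69, and Got1 with Glud1 at −0.57. These are descriptions over 9 points that share their libraries and include the contrast by which the genes were chosen.

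**Figure D3:**
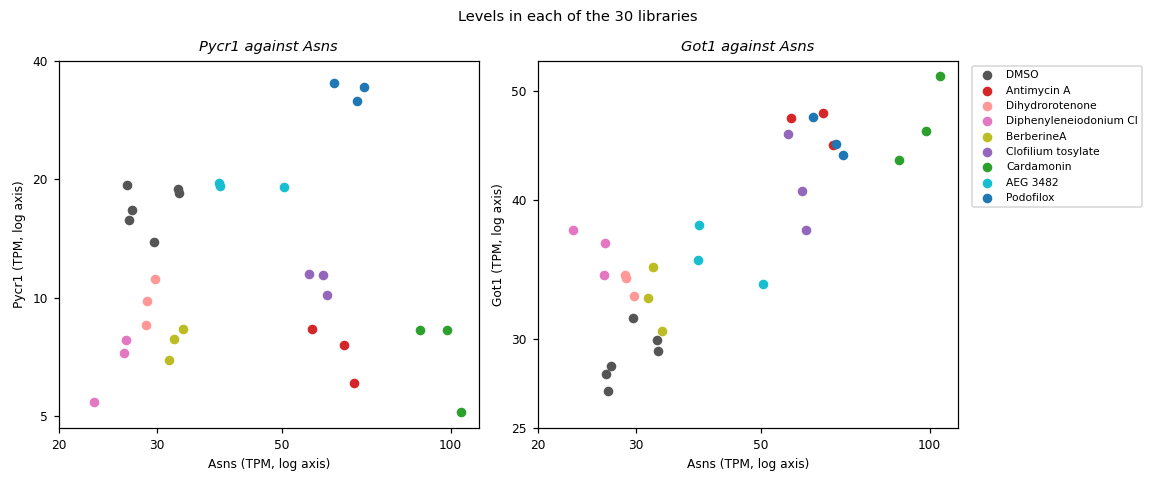
TPM of Pycr1 (left) and Got1 (right) against that of Asns in each of the 30 libraries, all on log axes, coloured by group. Antimycin A, Clofilium tosylate and Cardamonin lie low and to the right for Pycr1, apart from Podofilox, which is high on both axes. For Got1, all of these groups lie to the right, at 37.6 to 51.5 TPM.

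The genes most like each of 3 members were sought among 2919 protein-coding genes with at least 5 TPM in a group and a range of group means of at least 1 on the log2 scale, by the Pearson correlation over the same 9 group means. For Pycr1 they were Kdelr3 (0.976), a receptor that returns proteins to the endoplasmic reticulum, Ckap4 (0.975), a membrane protein of that compartment, Zfp9 (0.956), Cdc42ep1 (0.951) and Ndrg4 (0.950). Kdelr3, for example, averaged 119.9 TPM in Podofilox, 84.9 TPM in AEG 3482 and 78.2 TPM in DMSO, and between 50.6 and 58.5 TPM in the other 6 compounds. For Asns they were Mthfd2 (0.978), a mitochondrial folate enzyme, Chac1 (0.973), which degrades glutathione, Cyb5r1 (0.968), Atf5 (0.962) and Trib3 (0.961). Of these 5, Mthfd2, Chac1, Atf5 and Trib3 stood on the list of other ATF4 targets. That list was settled with earlier results known. The 9 group means include Antimycin A, where the genes were chosen with Pycr1 lower and such targets higher. This overlap is therefore partly built in and is not an independent test. For Glul they were Nrp1 (0.982), Arhgap20 (0.967), Scd2 (0.966), Mest (0.966) and Rock2 (0.960). Nrp1, a co-receptor for growth factors, averaged 61.2 TPM in Cardamonin, 58.6 TPM in AEG 3482 and 33.0 TPM in DMSO. Each set of 5 was the top of its search, and a shared function was not tested.

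The neighbouring genes were taken from lists whose composition was settled with earlier results known, and on each list the genes with the largest change in any compound are named. In Antimycin A, the genes were chosen with such targets higher, so the values there restate that choice. The list of other ATF4 targets held 15 genes, Atf4 itself among them. Of these 15, 13 lay above and none below DMSO there without overlap. Their median difference was 0.89 beside 0.03 for all genes, of which 18.0% lay above and 13.0% below. In Clofilium tosylate 14 rose and none fell, beside 10.9% of all genes called higher and 12.5% lower. In Podofilox 14 rose and none fell, beside 26.2% and 20%. In Cardamonin 13 rose and 1 fell, beside 37.3% and 33.0%. Pycr1 fell in the first and the last of these compounds. Trib3, a pseudokinase induced by ATF4, rose by 2.95 in Clofilium tosylate, 2.15 in Podofilox and 3.78 in Cardamonin. Chac1 rose by 1.77, 2.38 and 3.35, Atf5 by 1.30, 1.36 and 2.52 and Mthfd2 by 1.63, 2.06 and 2.49 in the same order. In AEG 3482, 10 rose and 2 fell, beside 41.3% of all genes called higher and 26.8% lower. In BerberineA 6 rose and 1 fell, beside 12.6% and 9.16%. In Dihydrorotenone 2 rose and 5 fell, beside 4.95% and 9.43%. In Diphenyleneiodonium Cl 4 rose and 3 fell, beside 14.0% and 11.7%. Mthfd2 fell by 0.54 and 0.61 in these last 2 compounds, in which Pycr1 also fell. Atf4 itself, named here for its role after its values were seen, rose in Cardamonin (1.10), Podofilox (1.15), AEG 3482 (0.49) and Clofilium tosylate (0.45), the 4 compounds in which Asns rose, and read 0.66 in Antimycin A.

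On the list of 9 genes of proline and ornithine metabolism, 8 were tested, and Prodh, which starts proline breakdown, was too low. Pycr3, a paralog of Pycr1, is named for that relation after its values were seen. It rose by 0.53 in Cardamonin, where Pycr1 fell, and by 0.74 in AEG 3482 (limma adjusted p = 3.01e-09 and 8.22e-12). In the other 5 tested compounds it did not pass. In Antimycin A it lay at 1.07 times the DMSO mean and overlapped DMSO. Oat, which links ornithine to pyrroline carboxylate, fell in all 7 tested compounds, from 0.25 in Dihydrorotenone to 0.86 in Cardamonin, against a DMSO mean of 282 TPM. P4ha2, a collagen prolyl hydroxylase subunit, fell in the same 5 compounds as Pycr1, by 0.55 to 0.62, and rose in Podofilox by 0.41. P4ha1, the other such subunit listed, is named for that relation after its values were seen. It averaged 138 TPM in DMSO, 183 TPM in Cardamonin, 182 TPM in AEG 3482, 154 TPM in Podofilox and 143 TPM in Diphenyleneiodonium Cl. Its means in BerberineA, Clofilium tosylate and Dihydrorotenone were 133, 122 and 121 TPM. Arg2, an arginase that yields ornithine, rose in Podofilox by 1.70, to 10.9 TPM from 2.68 TPM, and fell in AEG 3482 by 0.88. Aldh4a1, the second enzyme of proline breakdown, fell in Cardamonin by 1.06 and in Podofilox by 0.75. Rises and falls numbered 4 and 4 in Cardamonin, 4 and 2 in Podofilox and 2 and 3 in AEG 3482. In these compounds 70.3%, 46.2% and 68.1% of all genes were called. The counts were 2 and 4 in Diphenyleneiodonium Cl and 1 and 3 in Dihydrorotenone, beside 25.7% and 14.4% of all genes. They were 1 and 3 in BerberineA and 0 and 3 in Clofilium tosylate, beside 21.7% and 23.4%.

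Around asparagine and aspartate, 8 listed genes were tested, with 5 rises and 2 falls in AEG 3482, 4 and 3 in Cardamonin, 3 and 2 in Podofilox, 3 and 2 in Diphenyleneiodonium Cl, 2 and 1 in BerberineA, 1 and 0 in Clofilium tosylate and 0 and 1 in Dihydrorotenone. Across all genes, the shares called were 68.1%, 70.3%, 46.2%, 25.7%, 21.7%, 23.4% and 14.4% in the same order. Adss, which uses aspartate to make adenine nucleotides, rose by 1.14 in Cardamonin and by 0.91 in AEG 3482. Adsl, on the same list, rose in Cardamonin by 0.63. Aspg, an asparaginase, rose in Cardamonin by 0.94, to 3.71 TPM from 1.5 TPM. Nit2, which removes a product of glutamine transamination, fell in Podofilox by 0.55.

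Of the 12 listed genes of glutamate and glutamine metabolism, 6 rose and 2 fell in Podofilox, 4 and 4 in Cardamonin, 3 and 6 in AEG 3482, 3 and 2 in Clofilium tosylate, 1 and 4 in Diphenyleneiodonium Cl, 1 and 3 in BerberineA and 0 and 3 in Dihydrorotenone. Of all genes, 46.2%, 70.3%, 68.1%, 23.4%, 25.7%, 21.7% and 14.4% were called in the same order. Psat1, a glutamate-using enzyme of serine synthesis, rose where Asns rose. It rose by 1.87 in Cardamonin, 1.38 in Podofilox, 0.91 in AEG 3482 and 0.68 in Clofilium tosylate. Ctps, which uses glutamine to make CTP, fell in all 7, by 0.40 in Podofilox to 1.58 in AEG 3482. Bcat1, a branched-chain aminotransferase, rose in Podofilox by 1.49 and in Cardamonin by 0.97 and fell in 4 compounds, AEG 3482 among them. Abat, the aminotransferase that breaks down GABA, fell in AEG 3482 by 1.11, in Cardamonin by 1.04 and in Podofilox by 0.74.

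Got1 and Got2 form part of the malate-aspartate shuttle, whose other genes were listed together with mitochondrial glutamate carriers. None of the 6 tested genes passed in Dihydrorotenone, Diphenyleneiodonium Cl, BerberineA or Clofilium tosylate, by the limma test, where Got1 was called higher in each. The shares of all genes called there were 14.4%, 25.7%, 21.7% and 23.4%. At an unadjusted p under 0.05 the counts for the list were 0, 2, 1 and 2. In Cardamonin 1 rose and 3 fell, beside 70.3% of all genes called, in AEG 3482 2 rose and 3 fell, beside 68.1%, and in Podofilox 1 rose and 3 fell, beside 46.2%. Mdh1, the cytosolic malate dehydrogenase, fell in Cardamonin by 0.54 while Mdh2, the mitochondrial form, rose by 0.47. Slc25a13, an aspartate-glutamate carrier, fell in AEG 3482 by 0.77 and in Podofilox by 0.48, and its paralog Slc25a12 fell in Podofilox by 0.46.

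**Figure D4:**
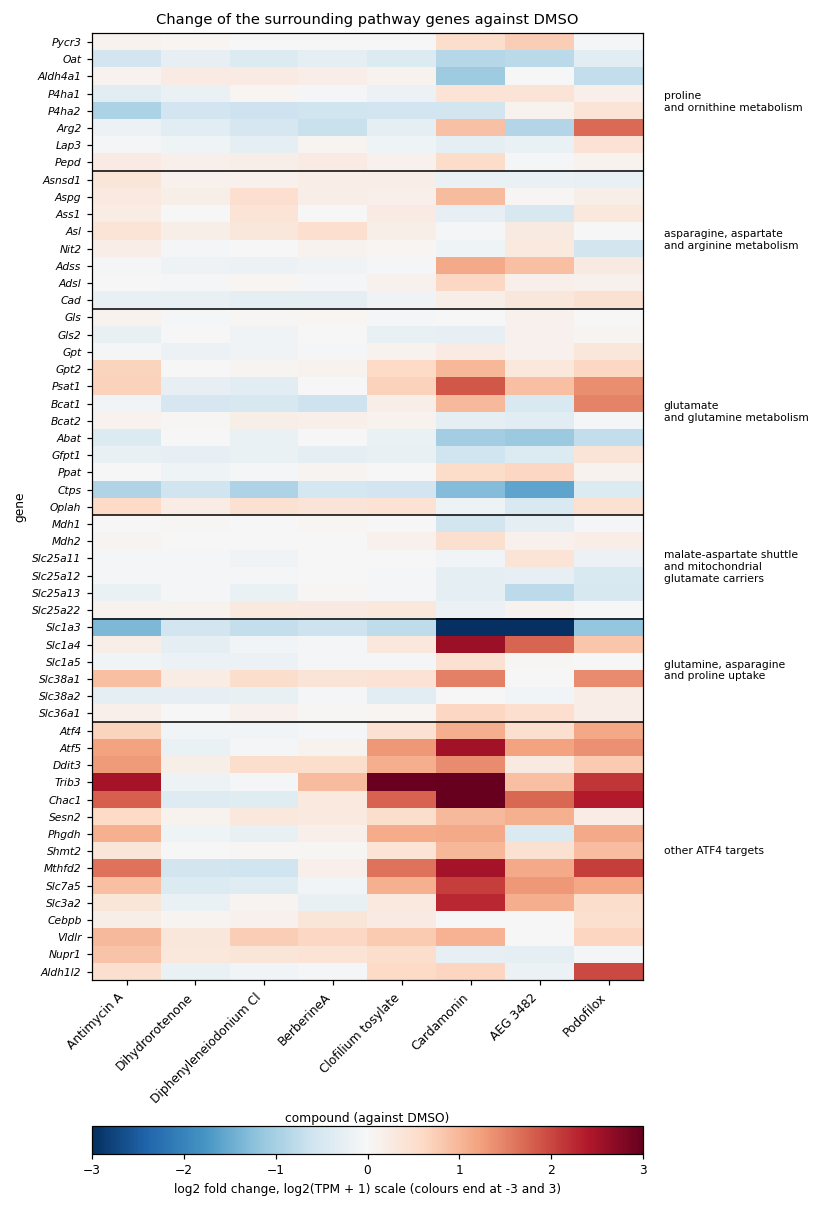
Difference from DMSO on the log2(TPM + 1) scale (colour, ending at −3 and 3) for each tested gene of the 6 lists (rows) in each of the 8 compounds (columns); the Antimycin A column was not tested. The list of other ATF4 targets at the bottom is mostly red in Cardamonin, Clofilium tosylate and Podofilox.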

How the data were processed

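RNA sequencing of 30 libraries was used as deposited. Per the labels and the submitters' processing notes, the authors quantified transcripts with kallisto 0.43.1 after FastQC, with mm10 as the build, and summed them by gene with tximport. The deposited unit is TPM per gene. Each library's deposited values add up to 927024 to 937134. TPM keeps no depth, so depth is unknown, no counting interval is given and precision rests on the spread between libraries. Each value is relative to the library's other genes.

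Symbols came from GENCODE M21 (29426 of 29861 genes matched). Genes reaching 1 TPM in 3 or more libraries (13644, all 7 members among them) were tested as log2(TPM + 1), a scale that understates changes of low genes. All libraries were fitted in limma 3.58.1 (R 4.3.3) with 1 mean per group and an intensity trend, two-sided, with Benjamini-Hochberg adjustment within each comparison and a threshold of 0.05. The fit was tested on simulated data. Other pseudocounts, filters, scalings, fits and left-out libraries were tried as alternatives. The members and lists were chosen with earlier results of these data known, and 1 listed gene is not reported here. The text names the members, the genes of each list with the largest change in any compound, and the 5 genes most like Pycr1, Asns and Glul. The series text gives 5 DMSO replicates, and the labels name 6, all used.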

Additional observations from a re-analysis of the deposited data

How the results depend on the processing

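Of 63 tested changes of the 7 genes (9 comparisons), 42 passed, and 31 of these passed in every alternative: other pseudocounts, filters and scalings, no intensity trend, a replicate block, only the compared groups, and each library left out. Of the 21 that did not pass, 15 passed in none. No called change changed sign. Among uncalled changes, 9 took the other sign somewhere, from at most 0.05 in size and to at most 0.13. All Pycr1 calls were kept. The genes called in Dihydrorotenone against DMSO numbered 1963, 898 with only the compared groups in the fit (the cause was not tested) and 1233 to 2179 with a library left out. The lowest values came without replicate 1 (1233) and replicate 2 (1266) of Dihydrorotenone. The members called in Dihydrorotenone against DMSO numbered 3, and 1 to 3 with a library left out. The members called in BerberineA against DMSO numbered 4, 2 with only the compared groups (Pycr1 among them) and 2 to 4 with a library left out. Fewer samples enter those fits.

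Replicate numbers did not pair the samples: over 108 pairs of same-numbered libraries of different groups, deviations from the group means correlated at −0.11 to 0.15 with a median of 0.01. With the replicate block, genes called in Dihydrorotenone against DMSO numbered 1680, and members called in BerberineA against DMSO numbered 3, Got1 being lost there (adjusted p = 0.0888 from limma). Asns in Diphenyleneiodonium Cl passed with the block (adjusted p = 0.0271 from limma). No other call of the 7 genes changed with the block.

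Other scalings moved the balance of rises and falls. The share of higher among called genes in Dihydrorotenone was 34.4% as deposited, 50.2% under median-ratio scaling, 47.4% under quantile normalization and 29.8% when rescaled without the 20 most abundant genes. In AEG 3482 it was 60.7% and 48.8% under median-ratio scaling, and in BerberineA 57.9% and 47.6%. Depth is unknown.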

Other observations

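Transporters that bring in glutamine, asparagine, glutamate and proline were listed beside the enzymes, and 6 of the 8 were high enough to test. The largest change in the whole set of listed genes was that of Slc1a3, a glutamate and aspartate carrier, which averaged 47.0 ± 5.87 TPM (SD, n = 6) in DMSO, 1.53 ± 0.597 TPM (n = 3) in Cardamonin and 3.61 ± 0.997 TPM (n = 3) in AEG 3482. It fell in all 7 tested compounds, by 4.26 and 3.39 on the log2(TPM + 1) scale in these, by 1.15 in Podofilox and by 0.58 to 0.77 in the other 4, with a highest limma adjusted p of 0.00163. Slc1a4, a carrier of small neutral amino acids of the same family, went the other way in Cardamonin and AEG 3482. It averaged 13.3 ± 0.944 TPM (n = 6) in DMSO, 85.0 ± 4.71 TPM (n = 3) in Cardamonin and 46.9 ± 0.940 TPM (n = 3) in AEG 3482, rises of 2.59 and 1.75.

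Slc38a1, a glutamine carrier, rose in 6 of the 7 tested compounds, by 1.52 in Cardamonin, 1.43 in Podofilox and 0.23 to 0.53 in 4 others. In AEG 3482 it averaged 7.10 ± 0.355 TPM (n = 3) beside 7.13 ± 0.514 TPM (n = 6) in DMSO and did not pass (limma adjusted p = 0.955). Slc36a1, which carries proline out of lysosomes and across the cell surface, rose in Cardamonin by 0.61, in AEG 3482 by 0.52 and in Podofilox by 0.20. Counts of rises and falls on this list were 4 and 1 in Cardamonin, 4 and 1 in Podofilox, 2 and 1 in AEG 3482, 2 and 2 in Clofilium tosylate, 1 and 1 in BerberineA, 1 and 2 in Diphenyleneiodonium Cl and 1 and 3 in Dihydrorotenone. The shares of all genes called in these compounds were 70.3%, 46.2%, 68.1%, 23.4%, 21.7%, 25.7% and 14.4% in the same order. In Antimycin A, which was not tested, Slc1a3 read −1.35 and Slc38a1 0.91.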
